A study of Homo sapiens with 12 samples.

Results

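The endoplasmic reticulum (ER) folding and secretory entry genes are 45 genes of the 57820 in the count tables, listed by function and matched by symbol. They comprise 13 chaperones and folding factors, 4 protein disulfide isomerases, 4 stress sensors and effectors, and 8 genes of ER-associated degradation. The remainder are 9 genes of the translocon and its partners, 4 of the signal peptidase and 3 enzymes that act on the sugar chains of folding glycoproteins. The rule used no measured value, but the members were chosen with earlier results of these data known. All 45 were found, and all 45 passed the filter on low counts.

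RNA was sequenced from PLC/PRF/5, an established human hepatoma line whose cells the labels call epithelial, in 12 libraries that ask what losing and restoring HKDC1 changes. HKDC1 encodes a protein of the hexokinase family, the enzymes that phosphorylate glucose. The KO_RES group holds 4 libraries of cells in which HKDC1 was knocked out and then put back, the KO group 4 libraries of HKDC1 knockout cells, and the control group 4 libraries whose genotype is given as WT. KO_RES and KO libraries came from 2 lines with 2 libraries per line and group, so that KO 2_1 is line 2, number 1; the lines are called KO2 and KO1 below. How the knockout and the rescue were made, whether a line is 1 clone, whether libraries are separate cultures, and the oxygen level are not given in the sources used here. Every p-value is therefore set against the spread of these samples alone, and that spread may be technical.

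Secreted and membrane proteins enter the ER through the SEC61 channel, lose their signal peptide, receive sugar chains, and are folded by chaperones and disulfide isomerases before they leave for the Golgi. Proteins that fail to fold are returned to the cytosol and degraded, and an excess of them activates IRE1 (ERN1), PERK (EIF2AK3) and ATF6, whose transcription factors raise chaperone and degradation genes. Hepatocytes are specialised for secretion, and albumin, fibrinogen and the apolipoproteins are their main cargo.

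HKDC1 itself stood at 626, 507, 1546 and 1237 CPM in KO_RES, 49.3, 91.2, 147 and 153 CPM in KO and 157, 154, 183 and 124 CPM in control, with KO_RES and KO libraries here and throughout in the order 2_2, 2_1, 1_2, 1_1. The KO2 libraries lay below every control and the KO1 libraries within the control range, so the mRNA does not separate the libraries labelled KO in line 1 from control. Gene counts would not show a small change within the transcript, and group names are used throughout as the labels give them. Title and genotype field disagree on the group of KO_RES 2_1, KO_RES 1_1, KO 2_2 and KO 1_2 (4 libraries), and groups here follow the titles. In these 4 libraries the HKDC1 level goes with the title. KO_RES 2_1 and KO_RES 1_1 had 507 and 1237 CPM, and KO 2_2 and KO 1_2 had 49.3 and 147 CPM. Total counts over genes lay between 36075411 and 60154638 in KO_RES, between 42609910 and 68040103 in KO and between 57333288 and 71853616 in control. All 8 hepatocyte and 4 epithelial markers reached 1 CPM (a relative count, set to equal library sizes by TMM) in a library, and none of the 5 blood markers did. Of the 5 fibroblast markers COL1A1 and LUM did, with a highest value of 4.92 CPM, and of the 3 endothelial markers matched CDH5 did, at up to 1.74 CPM. Controls 1 and 2 stood apart from controls 3 and 4: the summed hepatocyte markers were at 11207 and 10808 CPM in the first pair and 2382 and 2148 CPM in the second. These sums were 1304, 1275, 2676 and 2175 CPM in KO_RES and 1254, 1230, 1875 and 1564 CPM in KO. Controls 3 and 4 thus lay within the KO_RES range and above KO, and controls 1 and 2 far above both groups.

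Of the 17 chaperones and disulfide isomerases, 9 were lower in KO_RES and 8 in KO than in control, among them HSP90B1, PDIA6 and PDIA3, while HSPA5 and CANX were among those that did not pass. In a fit of 3 groups by edgeR's quasi-likelihood test with Benjamini-Hochberg adjustment over 19200 genes, 11 of the 45 genes were lower in KO_RES than in control and none was higher at an adjusted p under 0.05, beside 3.29% of all genes lower and 2.18% higher. In KO against control 11 were lower and none higher, beside 3.41% and 2.87% of all genes. Both comparisons use the same 4 controls, and 10 genes were called in each. The median log2 fold change over the 45 genes was -0.36 in KO_RES and -0.38 in KO, against 0.02 and 0.01 over all genes tested. All 4 KO_RES libraries lay below all 4 controls for 17 of the 45 genes, where 7.46% of all genes did so, and all 4 KO libraries for 22 genes, where 8.67% did. None of the 45 had all KO_RES or all KO libraries above the controls (6.18% and 8.1% of all genes).

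Together the 45 genes summed to 16169, 16438, 16218 and 16226 CPM in KO_RES, 14213, 15962, 16174 and 16493 CPM in KO and 24034, 24271, 19986 and 20005 CPM in control. Every KO_RES and KO library lay below every control, and the sums averaged 16263 ± 119.7 CPM in KO_RES, 15710.4 ± 1022 CPM in KO and 22074 ± 2402 CPM in control (SD, n = 4 each). In bulk RNA, fewer cells of a type and less RNA per cell cannot be told apart. Controls 1 and 2 were above controls 3 and 4 in 28 of the 45 genes, a larger share than the 30.4% of all genes. Without controls 1 and 2 no member was called in either comparison (12 and 13 had an unadjusted p under 0.05 in KO_RES and KO), with medians of -0.22 in KO_RES and -0.28 in KO. Few genes of any kind were called in that setting, 384 of 20120 in KO_RES and 337 in KO. An unadjusted p under 0.05 was found there for 2901 and 3045 of all genes. Without controls 3 and 4, 12 members were called in KO_RES and 14 in KO, where 1440 and 1485 of all 20299 genes were.

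**Figure D1:**
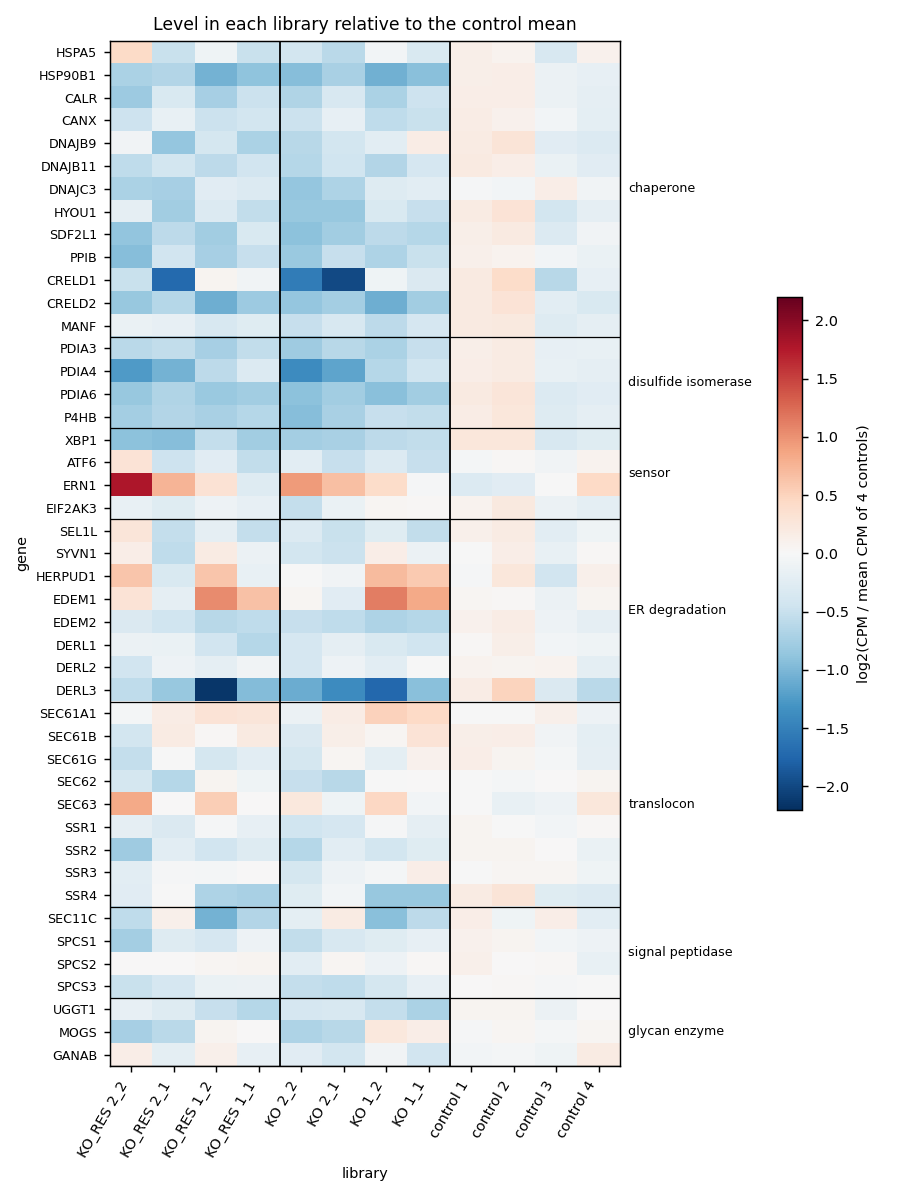
Level of each of the 45 genes in each library, as log2 of its CPM over the mean CPM of the 4 controls, with genes in rows grouped by role and libraries in columns. The folding genes in the upper rows are below the control mean in nearly all KO_RES and KO libraries, while EDEM1 is above it in line 1 and ERN1 is highest in KO_RES 2_2.

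Among the chaperones, 6 of 13 fell in KO_RES and 5 of 13 in KO, and all 13 fold changes were negative in both comparisons. HSP90B1 (GRP94), the HSP90 of the ER lumen, stood at 1389, 1438, 1098 and 1214 CPM in KO_RES, 1178, 1370.4, 1085 and 1190.2 CPM in KO and 2468, 2494, 2057 and 1981 CPM in control. CRELD2, an ER protein with disulfide isomerase activity that is induced by unfolded proteins, stood at 26.3, 30.3, 22.1 and 26.9 CPM in KO_RES, 26.0, 27.7, 22.2 and 27.5 CPM in KO and 53.3, 57.2, 39.5 and 36.8 CPM in control. SDF2L1, which works with the HSPA5 chaperone cycle, stood at 29.2, 35.6, 31.2 and 42.0 CPM in KO_RES, 28.4, 31.3, 35.5 and 34.2 CPM in KO and 57.6, 61.1, 43.0 and 50.2 CPM in control. For all of these the KO_RES and KO libraries lay below all 4 controls without overlap. The log2 fold change of HSP90B1 was -0.81 (SE 0.14, adjusted p = 0.00781) in KO_RES and -0.90 (SE 0.14, adjusted p = 0.00445) in KO, CRELD2 had -0.82 (SE 0.16, adjusted p = 0.0138) and -0.85 (SE 0.16, adjusted p = 0.0102), and SDF2L1 had -0.62 (SE 0.14, adjusted p = 0.0300) and -0.71 (SE 0.14, adjusted p = 0.0162). HSP90B1 and CRELD2 stayed called after the removal of any 1 library, with an adjusted p of at most 0.0285 and 0.0453 in KO_RES and 0.0179 and 0.0372 in KO. SDF2L1 lost it in KO_RES without control 1, control 2, control 4, KO_RES 1_2, KO_RES 2_1 or KO_RES 2_2 (adjusted p up to 0.0942) and in KO without control 1 or control 2 (up to 0.0529).

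PPIB (cyclophilin B), a proline isomerase, stood at 627, 891, 718 and 846 CPM in KO_RES, 678, 845, 751 and 848 CPM in KO and 1288, 1268, 1145 and 1088 CPM in control. DNAJB11 (ERdj3), a J-domain partner that hands substrates to HSPA5, stood at 122, 135, 120.2 and 134 CPM in KO_RES, 116, 133, 115 and 138 CPM in KO and 207, 198, 163 and 150.4 CPM in control. CALR (calreticulin), a lectin chaperone of the lumen, stood at 693, 964, 729.8 and 869 CPM in KO_RES, 763, 948, 748 and 879 CPM in KO and 1339, 1339, 1105 and 1057 CPM in control. Again no KO_RES or KO library reached the lowest control. The log2 fold changes were -0.64 (SE 0.14, adjusted p = 0.0209) in KO_RES and -0.62 (SE 0.14, adjusted p = 0.0229) in KO for PPIB, and -0.49 (SE 0.12, adjusted p = 0.0336) and -0.52 (SE 0.12, adjusted p = 0.0265) for DNAJB11. CALR fell in KO_RES, with -0.57 (SE 0.15, adjusted p = 0.0417), and had -0.54 (SE 0.15, adjusted p = 0.0503) in KO, which did not pass. PPIB lost its call in KO_RES without control 1, control 2 or KO_RES 1_2 (adjusted p up to 0.0682) and in KO without control 1, control 2, KO 1_2 or KO 2_2 (up to 0.0690). DNAJB11 lost it in KO_RES without control 1, control 2 or any KO_RES library (up to 0.0995) and in KO without control 1, control 2, KO 1_2, KO 2_1 or KO 2_2 (up to 0.0786), and CALR in KO_RES without any of 10 libraries, among them each control (up to 0.121).

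HSPA5 (BiP), the main HSP70 chaperone of the ER and the usual marker of the unfolded protein response, did not pass. It stood at 818, 433, 575 and 436 CPM in KO_RES, 460.3, 405, 583 and 485 CPM in KO and 672, 643, 479.6 and 651 CPM in control. The groups overlapped, since KO_RES 2_2 lay above every control and control 3 lay among the KO_RES and KO libraries. Its log2 fold change was -0.11 (SE 0.21, adjusted p = 0.806) in KO_RES and -0.34 (SE 0.21, adjusted p = 0.373) in KO. CANX (calnexin), the membrane-bound lectin chaperone and the most abundant member by counts, averaged 2618 ± 269 CPM in KO_RES, 2525 ± 315 CPM in KO and 3368 ± 385 CPM in control (SD, n = 4 each), with log2 fold changes of -0.36 (adjusted p = 0.175) in KO_RES and -0.42 (adjusted p = 0.115) in KO. Of the rest, HYOU1, which exchanges the nucleotide of HSPA5, had -0.44 (adjusted p = 0.218) and -0.61 (adjusted p = 0.0815), and DNAJC3, an inhibitor of PERK and a partner of HSPA5, had -0.48 (adjusted p = 0.115) and -0.48 (adjusted p = 0.104). MANF, an HSPA5-binding protein, had -0.23 (adjusted p = 0.321) in KO_RES and -0.45 (adjusted p = 0.0596) in KO. DNAJB9 (ERdj4), another J-domain partner of HSPA5, had -0.47 (adjusted p = 0.228) and -0.25 (adjusted p = 0.539), and CRELD1, a relative of CRELD2, had -0.41 (adjusted p = 0.649) and -0.78 (adjusted p = 0.345). None of these 5 passed in either comparison.

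The promoters of folding genes carry a known element, ERSE, that ATF6 binds together with NF-Y. It was searched as CCAAT, 9 bases of any kind and CCACG, with the shorter ERSE-II (ATTGG, 1 base of any kind, CCACG) and UPRE (TGACGTGG), on both strands of the RefSeq windows (GRCh38.p14) that run from 250 bases before to 50 after a gene's start. Windows were found for 40 of the 45 genes, some with several starts, and not for PDIA3, DERL1, DERL3, SPCS1 and MOGS. ERSE was in 27 of 35116 windows of all genes (0.0769%) and in 9 of the 51 windows of these genes, belonging to HSPA5, HSP90B1, CALR, CANX, CRELD2, PDIA6 and XBP1. CANX, PDIA6 and XBP1 each have another window without it. The matching CANX windows overlap, so the 9 windows are not 9 separate sites. ERSE-II was in 19 of all windows (0.0541%) and in those of HYOU1, SDF2L1 and HERPUD1, and UPRE in 256 of all windows (0.729%) and in those of SSR3, SEC62, SSR4 and HYOU1, where it overlaps an ERSE-II. Printed here are the 250 bases before the start for 5 genes that fell in both KO_RES and KO (HSP90B1, CRELD2, PDIA6, SDF2L1 and XBP1) and for 2 that hold an element and did not pass (HSPA5 and HERPUD1), from 5′ to 3′ on the gene's strand. Capitals mark each ERSE or ERSE-II, on either strand.
HSP90B1, plus strand of chr12:103930160-103930409: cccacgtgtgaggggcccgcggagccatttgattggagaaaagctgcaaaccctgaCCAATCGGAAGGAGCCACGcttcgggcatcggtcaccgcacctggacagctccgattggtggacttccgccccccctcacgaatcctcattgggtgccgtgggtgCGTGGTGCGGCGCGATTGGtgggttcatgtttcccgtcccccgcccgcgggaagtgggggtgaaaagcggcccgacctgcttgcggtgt
CRELD2, plus strand of chr22:49918384-49918633: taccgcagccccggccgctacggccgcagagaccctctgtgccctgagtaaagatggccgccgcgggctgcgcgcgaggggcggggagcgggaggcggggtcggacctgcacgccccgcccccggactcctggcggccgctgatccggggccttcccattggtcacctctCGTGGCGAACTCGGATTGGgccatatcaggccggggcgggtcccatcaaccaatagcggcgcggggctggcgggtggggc
PDIA6, minus strand of chr2:10812786-10813035: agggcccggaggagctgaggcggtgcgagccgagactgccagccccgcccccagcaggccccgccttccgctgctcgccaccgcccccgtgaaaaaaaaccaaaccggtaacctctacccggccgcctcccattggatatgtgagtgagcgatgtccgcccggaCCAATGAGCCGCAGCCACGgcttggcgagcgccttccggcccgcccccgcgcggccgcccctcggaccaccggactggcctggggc
SDF2L1, plus strand of chr22:21642052-21642301: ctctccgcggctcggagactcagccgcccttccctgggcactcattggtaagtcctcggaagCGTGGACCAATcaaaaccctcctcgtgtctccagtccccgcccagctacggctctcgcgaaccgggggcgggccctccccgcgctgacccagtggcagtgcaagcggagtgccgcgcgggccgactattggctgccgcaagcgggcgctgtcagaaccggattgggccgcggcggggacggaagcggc
XBP1, minus strand of chr22:28800570-28800819: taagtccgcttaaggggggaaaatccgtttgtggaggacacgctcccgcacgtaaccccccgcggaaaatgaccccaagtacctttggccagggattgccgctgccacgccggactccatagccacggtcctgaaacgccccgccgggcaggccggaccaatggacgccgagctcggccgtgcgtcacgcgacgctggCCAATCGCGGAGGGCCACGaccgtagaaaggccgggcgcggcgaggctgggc
HSPA5, minus strand of chr9:125241344-125241593: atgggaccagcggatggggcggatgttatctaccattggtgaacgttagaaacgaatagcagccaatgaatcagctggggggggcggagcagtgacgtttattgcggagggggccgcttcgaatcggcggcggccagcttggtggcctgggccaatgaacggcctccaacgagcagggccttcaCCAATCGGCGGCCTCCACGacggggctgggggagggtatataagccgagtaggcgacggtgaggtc
HERPUD1, plus strand of chr16:56931892-56932141: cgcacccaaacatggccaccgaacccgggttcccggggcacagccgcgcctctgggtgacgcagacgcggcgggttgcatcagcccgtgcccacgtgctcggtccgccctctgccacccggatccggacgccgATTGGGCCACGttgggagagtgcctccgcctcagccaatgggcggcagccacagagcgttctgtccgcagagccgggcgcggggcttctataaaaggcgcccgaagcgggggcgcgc

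Of the 10 genes with ERSE or ERSE-II, 6 were lower in KO_RES and 5 in KO, with median log2 fold changes of -0.60 and -0.62. Of the 30 with a window and neither element, 4 and 5 were lower, with medians of -0.23 and -0.30. The 10 and the 30 differ in role. HSPA5, HSP90B1, CALR, CANX, HYOU1, SDF2L1 and CRELD2 among the 10 are chaperones, while all translocon and signal peptidase genes with a window are among the 30. The part of role in these medians was not tested. HSPA5, CANX, HYOU1 and HERPUD1 hold an element and were called in neither comparison, and CALR was not called in KO, while DNAJB11, PPIB, P4HB and EDEM2 were called in both comparisons with neither element in the window. A match is a run of letters and was not tested as a binding site.

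**Figure D2:**
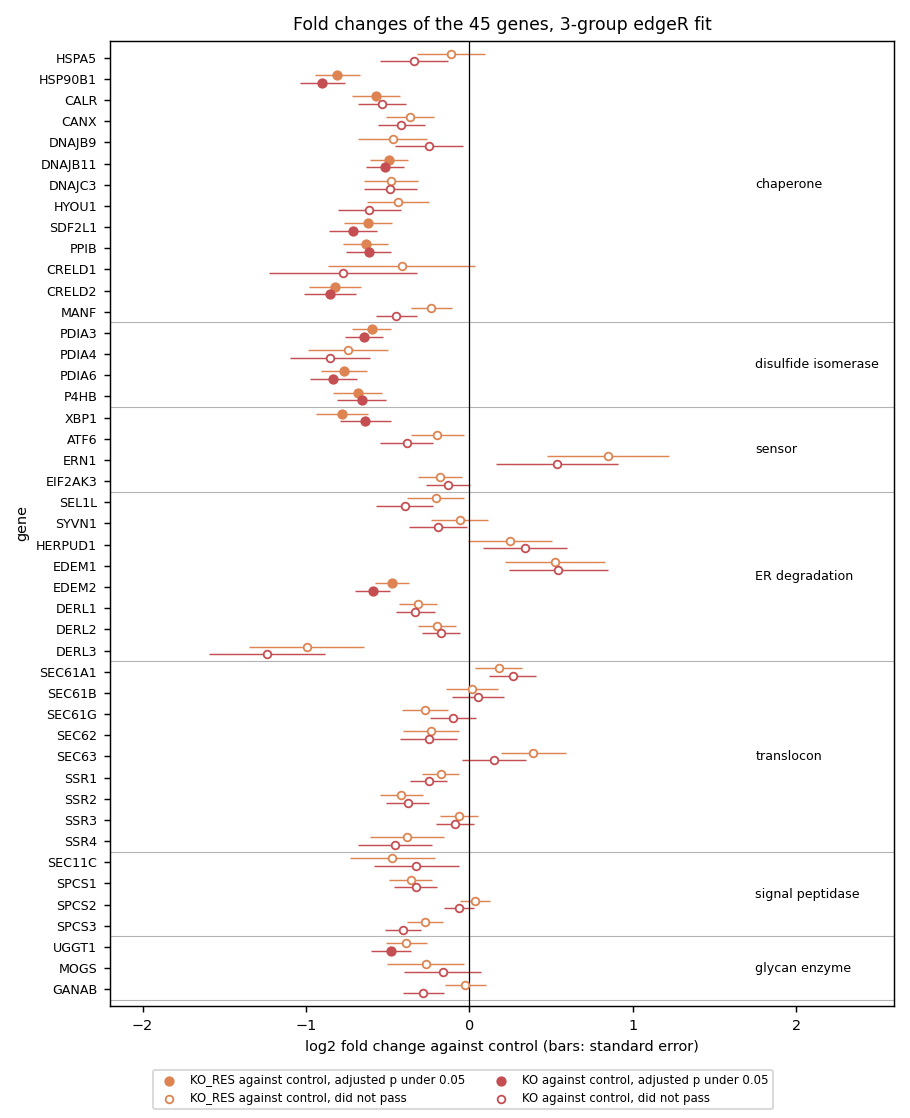
Log2 fold changes against control of the 45 genes, KO_RES above KO in each row, with standard errors as bars and filled points where the adjusted p was under 0.05. All chaperones and disulfide isomerases lie left of 0, whereas ERN1, HERPUD1, EDEM1, SEC61A1, SEC61B and SEC63 lie right of it in both groups without passing.

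Disulfide isomerases form and rearrange the disulfide bonds of secreted proteins, and 3 of 4 fell in both comparisons. PDIA6 (P5) stood at 749, 850.4, 758 and 792 CPM in KO_RES, 717, 791, 712 and 789 CPM in KO and 1537, 1609.6, 1089 and 1122 CPM in control. PDIA3 (ERp57), the partner of calnexin and calreticulin, stood at 623, 647, 570.2 and 646 CPM in KO_RES, 549.7, 615, 581 and 662 CPM in KO and 1033, 1060.4, 834 and 836 CPM in control. P4HB (PDI itself, also a subunit of collagen prolyl hydroxylase) stood at 1128, 1222, 1160.4 and 1224 CPM in KO_RES, 995, 1162, 1340.4 and 1313 CPM in KO and 2125, 2251, 1562 and 1663 CPM in control. In each case the highest KO_RES or KO library was below the lowest control. The log2 fold changes were -0.77 (SE 0.14, adjusted p = 0.0112) in KO_RES and -0.83 (SE 0.14, adjusted p = 0.00706) in KO for PDIA6, and -0.60 (SE 0.12, adjusted p = 0.0141) and -0.64 (SE 0.12, adjusted p = 0.00911) for PDIA3. For P4HB they were -0.68 (SE 0.15, adjusted p = 0.0228) and -0.66 (SE 0.15, adjusted p = 0.0253). PDIA6 kept its call without any single library in both comparisons, and PDIA3 did so in KO and lost it in KO_RES without KO_RES 1_2 (adjusted p = 0.0512). P4HB lost it in KO_RES without control 1, control 2, KO_RES 1_1 or KO_RES 1_2 (up to 0.0716) and in KO without control 1, control 2, KO 2_1 or KO 2_2 (up to 0.0764).

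PDIA4 (ERp72), whose log2 fold change was -0.74 (SE 0.24, adjusted p = 0.103) in KO_RES and -0.85 (SE 0.24, adjusted p = 0.0617) in KO, did not pass, although no library of either group reached the controls. It stood at 472, 544, 746 and 899 CPM in KO_RES, 426, 499.5, 717 and 820.4 CPM in KO and 1231, 1264, 989 and 969 CPM in control. The lines stood apart within both groups, with the line 2 libraries lowest.

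Of the sensors and their effectors, XBP1 fell and ERN1, ATF6 and EIF2AK3 did not pass. XBP1, the transcription factor that IRE1 activates by splicing its mRNA, stood at 255, 249, 331 and 282 CPM in KO_RES, 287, 293, 321 and 331 CPM in KO and 572, 570.4, 374 and 400.2 CPM in control. Gene counts do not separate its spliced from its unspliced form. No KO_RES or KO library reached a control, and the log2 fold change was -0.78 (SE 0.16, adjusted p = 0.0166) in KO_RES and -0.64 (SE 0.16, adjusted p = 0.0353) in KO. Its call was lost in KO_RES without control 1 or control 2 (adjusted p up to 0.0541) and in KO without control 1, control 2 or any KO library (up to 0.105).

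ERN1, the IRE1 kinase and nuclease that splices XBP1, stood at 216, 106, 78.6 and 51.6 CPM in KO_RES, 119.7, 99.4, 82.6 and 61.6 CPM in KO and 50.6, 52.8, 62.7 and 84.8 CPM in control. The highest value, in KO_RES 2_2, was more than any control and the lowest of KO_RES, in 1_1, lay among the controls, so the groups overlapped widely. Its log2 fold change was 0.85 (SE 0.38, adjusted p = 0.224) in KO_RES and 0.53 (SE 0.37, adjusted p = 0.444) in KO. ATF6, which is cut in the Golgi to release a transcription factor, averaged 93.5 ± 26.3 CPM in KO_RES, 82.2 ± 8.08 CPM in KO and 107 ± 5.24 CPM in control (SD, n = 4 each), with -0.20 (adjusted p = 0.531) and -0.38 (adjusted p = 0.190). All 4 KO libraries were below the controls for ATF6, while KO_RES 2_2, at 132 CPM, was above them. EIF2AK3, the PERK kinase that slows translation, had -0.18 (adjusted p = 0.482) in KO_RES and -0.13 (adjusted p = 0.620) in KO.

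**Figure D3:**
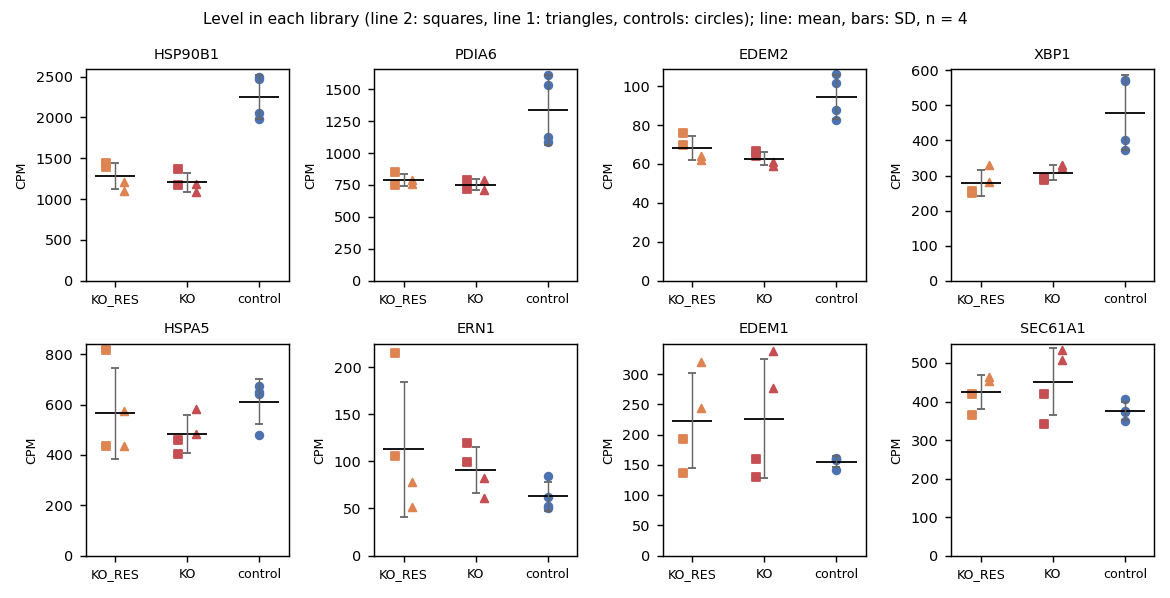
CPM in each library for 8 genes, with KO_RES left, KO in the middle and control right, squares for line 2, triangles for line 1 and circles for controls, and lines and bars for the mean and SD of 4 libraries. HSP90B1, PDIA6, EDEM2 and XBP1 are below every control in all 8 KO_RES and KO libraries. HSPA5, ERN1, EDEM1 and SEC61A1 overlap with the controls, and EDEM1 splits by line.

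In ER-associated degradation, EDEM2 fell and the other 7 genes did not pass in either comparison. EDEM2, a mannosidase that starts the trimming that marks misfolded glycoproteins, stood at 75.9, 69.9, 62.0 and 64.3 CPM in KO_RES, 66.5, 64.2, 59.1 and 60.9 CPM in KO and 101, 106, 87.5 and 82.7 CPM in control. All KO_RES and KO libraries were under the lowest control, with log2 fold changes of -0.47 (SE 0.11, adjusted p = 0.0243) in KO_RES and -0.59 (SE 0.11, adjusted p = 0.00840) in KO. The call held in KO whichever library was left out and was lost in KO_RES without control 1, control 2, KO_RES 1_1 or KO_RES 1_2 (adjusted p up to 0.0785). EDEM1, its relative that follows it in trimming, stood at 192, 136, 321 and 244 CPM in KO_RES, 159, 131, 339 and 276 CPM in KO and 160.2, 157, 141 and 162 CPM in control. Its line 1 libraries were above every control and its line 2 libraries, other than KO_RES 2_2, among or below them, and the pooled changes were 0.52 (adjusted p = 0.354) and 0.54 (adjusted p = 0.325).

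SEL1L and SYVN1 (HRD1) form the ligase complex that ubiquitinates retrotranslocated proteins. SEL1L averaged 206 ± 57.5 CPM in KO_RES, 180.2 ± 17.1 CPM in KO and 237 ± 31.5 CPM in control (SD, n = 4 each), and its log2 fold change was -0.21 (adjusted p = 0.547) in KO_RES and -0.40 (adjusted p = 0.210) in KO. SYVN1 had -0.06 (adjusted p = 0.884) and -0.19 (adjusted p = 0.567). HERPUD1, a stress-induced partner of that complex, stood at 232, 119, 232 and 135 CPM in KO_RES, 151, 144, 245 and 225 CPM in KO and 149, 179.8, 113 and 163 CPM in control and overlapped between the groups, at 0.25 (adjusted p = 0.629) and 0.34 (adjusted p = 0.485). Of the derlins, which help move substrates out of the ER, DERL1 had -0.32 (adjusted p = 0.153) in KO_RES and -0.33 (adjusted p = 0.123) in KO, and DERL2 had -0.20 (adjusted p = 0.354) and -0.17 (adjusted p = 0.410). DERL3 was the lowest member, at 0.808 ± 0.314 CPM in KO_RES, 0.685 ± 0.162 CPM in KO and 1.63 ± 0.544 CPM in control, with -0.997 (adjusted p = 0.130) and -1.24 (adjusted p = 0.0617).

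None of the 9 translocon genes passed in either comparison, beside the 3.29% and 3.41% of all genes that were lower. Their summed level was 2477 ± 112 CPM in KO_RES, 2455 ± 242 CPM in KO and 2690.0 ± 109 CPM in control (SD, n = 4 each), while the chaperones summed to 7485 ± 354 CPM in KO_RES, 7182 ± 477 CPM in KO and 10608 ± 1223 CPM in control. SEC61A1, the channel itself, stood at 364, 420.0, 463 and 454 CPM in KO_RES, 342, 421, 534 and 508 CPM in KO and 373, 374, 406 and 349 CPM in control, with log2 fold changes of 0.18 (adjusted p = 0.516) in KO_RES and 0.26 (adjusted p = 0.305) in KO. SEC61B and SEC61G, its small subunits, had 0.01 (adjusted p = 0.975) and -0.27 (adjusted p = 0.300) in KO_RES and 0.05 (adjusted p = 0.880) and -0.10 (adjusted p = 0.723) in KO. SEC62 and SEC63, which serve import after translation, had -0.24 (adjusted p = 0.467) and 0.39 (adjusted p = 0.286) in KO_RES and -0.25 (adjusted p = 0.435) and 0.15 (adjusted p = 0.713) in KO.

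The TRAP complex (SSR1 to SSR4), which sits beside the channel and helps some signal sequences to insert, likewise had no call. SSR1 averaged 470.2 ± 41.4 CPM in KO_RES, 447 ± 57.9 CPM in KO and 531 ± 17.6 CPM in control (SD, n = 4 each), with log2 fold changes of -0.18 (adjusted p = 0.393) in KO_RES and -0.25 (adjusted p = 0.213) in KO. SSR3 had -0.06 (adjusted p = 0.799) and -0.09 (adjusted p = 0.707), and SSR4 had -0.38 (adjusted p = 0.366) and -0.46 (adjusted p = 0.264). SSR2, at -0.42 (adjusted p = 0.0926) and -0.38 (adjusted p = 0.118), was below all controls in all 8 KO_RES and KO libraries.

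The signal peptidase, which cuts signal peptides as proteins enter, had no call among 4 genes. SPCS3 stood at 183, 198, 233 and 234 CPM in KO_RES, 179, 174, 196 and 225 CPM in KO and 258, 259.9, 252 and 255 CPM in control, every KO_RES and KO library being below every control, with -0.27 (adjusted p = 0.183) in KO_RES and -0.41 (adjusted p = 0.0514) in KO. SPCS1 had -0.36 (adjusted p = 0.143) and -0.33 (adjusted p = 0.165), SPCS2 had 0.03 (adjusted p = 0.870) and -0.06 (adjusted p = 0.749), and SEC11C, a catalytic subunit, had -0.47 (adjusted p = 0.328) and -0.33 (adjusted p = 0.510).

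Of the enzymes that act on glucose residues of new sugar chains, UGGT1 fell in KO. UGGT1, which puts glucose back on misfolded glycoproteins so that they bind calnexin again, stood at 484, 451, 384 and 352 CPM in KO_RES, 422, 427, 380.1 and 337 CPM in KO and 567, 568, 501 and 547 CPM in control. All 8 KO_RES and KO libraries were below the controls, with -0.39 (SE 0.12, adjusted p = 0.0952) in KO_RES and -0.48 (SE 0.12, adjusted p = 0.0420) in KO. The call in KO was lost without any of 10 single libraries, among them each control and each KO library (adjusted p up to 0.113). GANAB, the catalytic subunit of glucosidase II, averaged 564 ± 73.0 CPM in KO_RES, 471 ± 54.1 CPM in KO and 574 ± 51.3 CPM in control (SD, n = 4 each), with -0.03 (adjusted p = 0.938) and -0.28 (adjusted p = 0.210), and MOGS, glucosidase I, had -0.27 (adjusted p = 0.559) and -0.16 (adjusted p = 0.734).

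Counts per kilobase of exon allow levels to be set side by side between genes, on CPM divided by the union of exon lengths in GENCODE release 29, with the isoforms in use unknown. On that scale PPIB and CANX were the highest members, PPIB at 403 in KO_RES, 408 in KO and 627 in control and CANX at 419.8 in KO_RES, 405 in KO and 540.2 in control. HSP90B1 was at 274 in KO_RES, 257 in KO and 479 in control, and CALR was at 299.8 in KO_RES, 308 in KO and 446 in control. HSPA5 was at 145 in KO_RES, 124 in KO and 156 in control. The sensors were far lower, with ERN1 at 10.4 in KO_RES, 8.36 in KO and 5.78 in control and ATF6 at 11.9 in KO_RES, 10.4 in KO and 13.6 in control.

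No difference between KO_RES and KO in the 45 genes passed the test. For KO_RES against KO no member was called in the 3-group fit, as was no gene among all 19200 (0.0%), and no member had an unadjusted p under 0.05. The log2 fold changes ran from -0.22 (DNAJB9) to 0.36 (CRELD1), with a median of 0.05. HSP90B1 had 0.09 (SE 0.14, adjusted p = 1), PDIA6 0.07 (SE 0.14, adjusted p = 1), CRELD2 0.03 (SE 0.16, adjusted p = 1) and XBP1 -0.14 (SE 0.16, adjusted p = 1). HKDC1 itself had 3.15 (adjusted p = 0.156) in the same fit, so a missed threshold there does not show that a level stayed the same. With line and number as a block over 4 pairs, 0.0437% of 18293 genes were called and none of the 45, and 4 members had an unadjusted p under 0.05. These were GANAB at 0.26 (adjusted p = 0.201), MANF at 0.22 (adjusted p = 0.253), CRELD1 at 0.43 (adjusted p = 0.289) and SEC61G at -0.16 (adjusted p = 0.363).

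MANF stood at 46.8, 45.6, 40.6 and 43.0 CPM in KO_RES and 36.5, 40.4, 34.9 and 40.0 CPM in KO, and each KO_RES library was above the KO library of its line and number. GANAB stood at 636, 495, 616 and 507 CPM in KO_RES and 480.5, 433, 544 and 428 CPM in KO, likewise higher in 4 of 4 pairs. In all, 13 of the 45 genes were higher in KO_RES in 4 of 4 pairs and 3 in 0 of 4, where 11.0% and 13.3% of all genes were; the 13 include HSP90B1, PDIA6, PDIA4, CANX, EDEM2 and UGGT1. In the blocked edgeR fit HSP90B1 had 0.09 (adjusted p = 0.621) and PDIA6 had 0.07 (adjusted p = 0.685). DESeq2 with the pair block, an alternative chosen after seeing the data, called GANAB (0.26, adjusted p = 0.0221) and no other member, and 3.42% of 15101 genes. Within the lines no member was called for KO2_RES against KO2 or KO1_RES against KO1, where 0.00486% and 0.195% of 20559 genes were, and none for the difference in rescue between the lines, where 0.0% were. Medians over the 45 genes were 0.11 in line 2 and -0.01 in line 1.

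Taken line by line in a fit of 5 groups, 17 genes were lower and none higher in KO2 than in control (5.24% and 4.79% of 20559 genes), and 13 were lower and 2 higher in KO1 (9.74% and 8.36%). Both lines use the same controls. The 8 genes lower in each line were HSP90B1, SDF2L1, PPIB, CRELD2, PDIA3, PDIA4, PDIA6 and EDEM2. PPIB lost its call in each line without control 1, control 2 or control 3. SDF2L1 in KO1 and CRELD2 in KO2 lost theirs without control 1 or control 2. In each line SDF2L1, PPIB, CRELD2 and PDIA3 also lost theirs without a KO library of that line. HSP90B1 had -0.82 (SE 0.15, adjusted p = 0.00822) in KO2 and -0.99 (SE 0.15, adjusted p = 0.00201) in KO1, PDIA6 had -0.83 (SE 0.19, adjusted p = 0.0188) and -0.84 (SE 0.19, adjusted p = 0.0113), and EDEM2 had -0.53 (SE 0.12, adjusted p = 0.0176) and -0.66 (SE 0.12, adjusted p = 0.00404). Without controls 1 and 2, 11 members were called in KO2, all lower, and 7 in KO1, 6 lower and 1 higher. Of all 20120 genes, 2136 were called in KO2 (1190 lower and 946 higher) and 3535 in KO1 (1946 lower and 1589 higher). In KO1 the share of members called either way was thus no larger than that of all genes. For lower calls alone it was 6 of 45 members beside 1946 of 20120 genes. In this setting HSP90B1 and PDIA6 passed in both lines, at -0.67 (adjusted p = 0.0237) and -0.56 (adjusted p = 0.0421) in KO2 and -0.82 (adjusted p = 0.00632) and -0.55 (adjusted p = 0.0303) in KO1. There EDEM2 passed in KO1, at -0.50 (adjusted p = 0.0134), and had -0.39 (adjusted p = 0.0554) in KO2. Each line rests on 2 libraries, so a fit without 1 of them takes the spread from the other groups. Fewer members, and fewer of all genes, were then called in that line. HSP90B1 lost its call in KO2 without either library (adjusted p up to 0.0969) and kept it in KO1, PDIA6 lost it in each line without either library of that line (up to 0.147 and 0.110), and EDEM2 did so in KO2 (up to 0.148) and without KO 1_2 in KO1 (adjusted p = 0.0505).

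The lines differed from each other in 6 of the 45 genes, all lower in KO2 (5.72% of all genes were lower and 6.26% higher). EDEM1 stood at 159 and 131 CPM in the KO2 libraries and 339 and 276 CPM in the KO1 libraries, with a difference of -1.08 (SE 0.20, adjusted p = 0.00575). Against control it was higher in KO1, at 0.98 (adjusted p = 0.00266), and had -0.10 (adjusted p = 0.775) in KO2. PDIA4 stood at 426 and 499.5 CPM in KO2 and 717 and 820.4 CPM in KO1, differing by -0.73 (SE 0.19, adjusted p = 0.0307). Against control it fell in both lines, with -1.27 (adjusted p = 0.00160) in KO2 and -0.54 (adjusted p = 0.0483) in KO1. MOGS, at 130.5 and 138 CPM in KO2 and 247 and 233 CPM in KO1, differed by -0.83 (SE 0.11, adjusted p = 0.00102) and fell against control in KO2, at -0.64 (adjusted p = 0.00271).

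CRELD1 stood at 5.30 and 3.91 CPM in KO2 and 14.4 and 12.4 CPM in KO1, a difference of -1.54 (SE 0.39, adjusted p = 0.0292). DNAJC3 differed by -0.51 (SE 0.13, adjusted p = 0.0262) and SEC62 by -0.55 (SE 0.12, adjusted p = 0.0155). These last 3 fell against control in KO2, at -1.74 (adjusted p = 0.0132), -0.76 (adjusted p = 0.00252) and -0.55 (adjusted p = 0.00975). The differences in CRELD1, DNAJC3, SEC62 and PDIA4 lost their call without any of the 4 KO libraries (adjusted p up to 0.177, 0.164, 0.104 and 0.194). That in EDEM1 lost it without KO 2_1 (adjusted p = 0.0588), and that in MOGS held throughout. Against control, the calls of EDEM1 in KO1 and of PDIA4, MOGS and DNAJC3 in KO2 held whichever library was left out, those of CRELD1 and SEC62 in KO2 were lost without KO 2_1 or KO 2_2, and that of PDIA4 in KO1 without control 1, control 2 or any of 6 KO_RES and KO libraries (adjusted p up to 0.275).

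**Figure D4:**
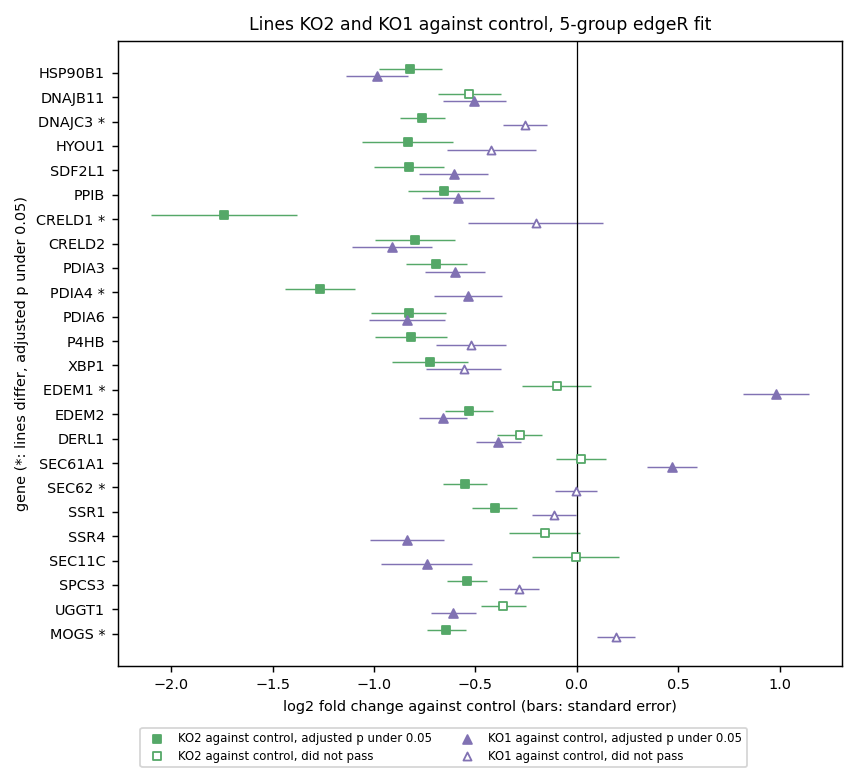
Log2 fold changes against control in KO2 (squares, upper) and KO1 (triangles, lower) for the 24 genes called in a line or between the lines, with standard errors as bars and filled symbols where the adjusted p was under 0.05. Asterisks mark the 6 genes whose difference between the lines passed. HSP90B1 and PDIA6 lie together in both lines, and EDEM1, MOGS, CRELD1 and PDIA4 lie apart.

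Other genes passed against control in 1 line, with no difference between the lines that passed. In KO2 these were HYOU1 at -0.83 (adjusted p = 0.0401), P4HB at -0.82 (adjusted p = 0.0155), XBP1 at -0.72 (adjusted p = 0.0347), SPCS3 at -0.54 (adjusted p = 0.00777) and SSR1 at -0.40 (adjusted p = 0.0430). In KO1 the channel gene SEC61A1 was higher, at 0.47 (adjusted p = 0.0234), and SSR4 at -0.84 (adjusted p = 0.0103), SEC11C at -0.74 (adjusted p = 0.0430), UGGT1 at -0.61 (adjusted p = 0.00437), DERL1 at -0.39 (adjusted p = 0.0353) and DNAJB11 at -0.51 (adjusted p = 0.0461) were lower. The tested differences, KO2 minus KO1, were -0.45 (adjusted p = 0.0698) for SEC61A1, 0.68 (adjusted p = 0.0552) for SSR4 and 0.74 (adjusted p = 0.0868) for SEC11C. All of these calls were lost when a KO library of the line was left out, except those of UGGT1 without KO 1_2 (highest adjusted p 0.0692, without KO 1_1). SEC61A1 reached an adjusted p of up to 0.146, SSR4 0.0873, HYOU1 0.223, P4HB 0.142 and XBP1 0.194, with HYOU1 and XBP1 losing theirs also without control 1, control 2 or any line 1 library, and SEC61A1 without control 1, control 2 or control 4. SEC11C, DERL1, DNAJB11, SPCS3 and SSR1 reached up to 0.273, 0.226, 0.300, 0.0849 and 0.210. Control 1 or control 2 decided the call as well for SEC11C, DERL1, DNAJB11 and SSR1, control 3 for SEC11C and SSR1, and control 4 for SSR1.

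The KO_RES and KO libraries numbered 2 differed from those numbered 1 in 17 of the 45 genes, 9 higher and 8 lower, beside 9.82% and 10.2% of 19766 genes. The labels do not say what the numbers stand for. The genotype field calls number 2 rescue and number 1 knockout, which the HKDC1 levels do not follow. The genes higher in number 2 were sensors and degradation genes for the most part: ERN1 had 0.57 (SE 0.11, adjusted p = 0.00633), ATF6 0.36 (SE 0.09, adjusted p = 0.0195), HERPUD1 0.47 (SE 0.14, adjusted p = 0.0317), SEL1L 0.38 (SE 0.10, adjusted p = 0.0210), EDEM1 0.35 (SE 0.08, adjusted p = 0.0120) and SYVN1 0.32 (SE 0.10, adjusted p = 0.0371). HSPA5 was higher as well, at 0.43 (SE 0.11, adjusted p = 0.0231), and SEC63 at 0.53 (SE 0.09, adjusted p = 0.00388) and GANAB at 0.27 (SE 0.08, adjusted p = 0.0420). SEC63 stood at 271 and 222 CPM in KO_RES libraries numbered 2 and 153 and 154 CPM in those numbered 1, and at 179 and 208 against 142 and 147 CPM in KO. Every library numbered 2 was thus above every library numbered 1.

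Lower in number 2 were CALR, PPIB, DERL2, SEC61B, SEC61G, SSR2, SEC11C and SPCS1, between -0.24 (DERL2, adjusted p = 0.0426) and -0.47 (SEC11C, adjusted p = 0.00516). The calls of SEC63, ERN1 and SEC11C held whichever of the 8 libraries was left out. The other 14 were lost without at least 1 library, and without KO_RES 1_1, KO_RES 1_2, KO 2_1 or KO 2_2 only 5 members were called. Calls over all 19766 genes fell as well, from 3962 to 1444, 1432, 1465 and 1323 in that order. The library KO_RES 2_2 was the highest of all 12 for HSPA5, ERN1, ATF6, SEL1L and SEC63, and it had the largest share of reads not assigned to a gene, 31.5% where the other 11 had 23.2% to 28.6%; the part of that share in these values was not tested.

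**Figure D5:**
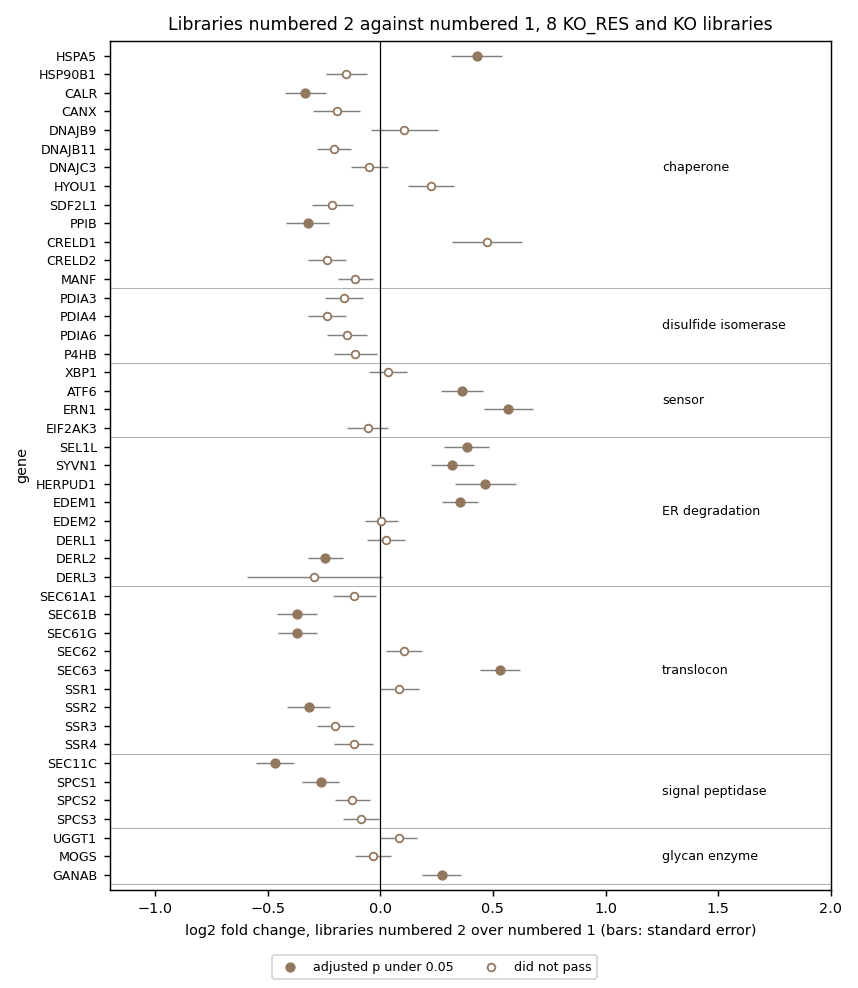
Log2 fold changes of libraries numbered 2 over libraries numbered 1 among the 8 KO_RES and KO libraries, with standard errors as bars and filled points where the adjusted p was under 0.05. ERN1, ATF6, HERPUD1, SEL1L, EDEM1 and SYVN1 lie right of 0, SEC11C, SPCS1, SEC61B and SEC61G left of it, and HSP90B1 and PDIA6, which fell against control, did not pass.

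Neighbouring steps of the pathway were taken from 9 further lists. Their counts stand beside 3.29% of all genes lower in KO_RES and 3.41% in KO, and 2.18% and 2.87% higher. Of the 11 oligosaccharyltransferase subunits, which attach sugar chains, 2 were lower in KO_RES and 1 in KO, with medians of -0.23 and -0.31: RPN1 had -0.57 (adjusted p = 0.0144) in KO_RES and -0.58 (adjusted p = 0.0129) in KO, and RPN2 had -0.43 (adjusted p = 0.0459) in KO_RES. None of the 8 signal recognition particle genes, which bring ribosomes to the ER, was called (medians 0.09 and 0.12). Of 10 subunits of the ER membrane protein complex, an insertase, 1 was lower in each: EMC10 at -0.71 (adjusted p = 0.0208) in KO_RES and EMC2 at -0.68 (adjusted p = 0.00852) in KO. Of 15 further oxidoreductases tested, 3 were lower in KO_RES and 4 in KO (medians -0.26 and -0.31). Among them ERP44, which retains unassembled cargo, had -0.77 (adjusted p = 0.0185) and -0.80 (adjusted p = 0.0154), and ERP29 had -0.80 (adjusted p = 0.0141) and -0.69 (adjusted p = 0.0248).

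Of 23 genes of export from the ER, 3 were lower in KO_RES and 4 in KO, with medians near 0 (-0.09 and -0.12). The cargo receptor TMED10 had -0.52 (adjusted p = 0.00644) in KO_RES and -0.64 (adjusted p = 0.00227) in KO, KDELR1, which returns ER residents from the Golgi, -0.69 (adjusted p = 0.00339) and -0.66 (adjusted p = 0.00398), and LMAN1, a lectin receptor, -0.65 (adjusted p = 0.0138) and -0.72 (adjusted p = 0.00760). Of 19 further degradation genes 2 were lower in each, among them the lectin ERLEC1 at -0.63 (adjusted p = 0.0140) and -0.63 (adjusted p = 0.0133). Of 5 further glycan trimming genes none was called in KO_RES and 1 in KO, UGGT2 at -0.80 (adjusted p = 0.0370). In the ATF4 branch downstream of PERK, 2 of 9 genes were higher in KO_RES and 3 in KO, with medians of 0.55 and 0.57: SESN2 had 1.31 (adjusted p = 0.0454) and 1.47 (adjusted p = 0.0284) and TRIB3 2.29 (adjusted p = 0.0398) and 2.19 (adjusted p = 0.0441). By line, 0 of these 9 were called in KO2 and 3 were higher in KO1 (medians 0.45 and 0.67). Of the 9, 6 were higher in libraries numbered 2 than in those numbered 1 (median 0.44). The shares of all genes that were higher were 4.79% in KO2, 8.36% in KO1 and 9.82% between the numbers. These lists were not rerun under the alternatives.

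The cargo of this pathway differed more between libraries than the pathway did. Summed over 16 secreted liver proteins, the level was 3943, 4762, 37007 and 20969 CPM in KO_RES, 4854, 4992, 30169 and 16867 CPM in KO and 33302, 31659.6, 14023 and 15321 CPM in control. KO_RES and KO libraries of line 2 were below every control, those of line 1 lay within or above the control range, and controls 1 and 2 were above controls 3 and 4. Of 15 tested, 4 were lower in KO_RES and 5 in KO (medians -1.71 and -1.46), beside 3.29% and 3.41% of all genes. APOA1 had -4.29 (adjusted p = 0.0235) and -4.11 (adjusted p = 0.0260), and FGB -3.26 (adjusted p = 0.0380) and -3.64 (adjusted p = 0.0253). By line and gene, 4 of 16 were lower in KO2 (median -3.12) and 6 in KO1 (median -1.64), with 0 higher in either. Of all genes, 5.24% and 9.74% were lower. The sums of line 1 thus do not show that each of these genes kept its control level. The summed level of the 45 genes was at 16169 and 16438 CPM in the KO_RES libraries of line 2 and 16218 and 16226 CPM in those of line 1, while the cargo sums of these 4 libraries ran from 3943 to 37007 CPM. The part of the cargo level in the values of the 45 genes was not tested.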

How the data were processed

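RNA of 12 PLC/PRF/5 libraries was sequenced after a stranded mRNA preparation, per the labels. Raw counts per gene were deposited for each library, made with STAR 2.6.0b on GRCh37 per the submitters' processing notes, and symbols were matched to 45 of 45 members. Strand-specific counts (the fourth column) were used, without the 4 unassigned lines (23.2% to 31.5% of the total). Groups follow the titles. edgeR 4.0.16 (R 4.3.3) fitted quasi-likelihood models after filterByExpr and TMM scaling: 3 groups (19200 genes), 5 groups with KO and KO_RES split by line (20559 genes), and numbers 2 and 1 among 8 libraries (19766 genes). P-values were Benjamini-Hochberg adjusted over all genes, with a threshold of 0.05. CPM is TMM-scaled, and a fold change depends on that scaling. Alternatives, DESeq2 1.42.0 among them, are given in the closing section. The 3-group and 5-group fits were also run on simulated counts, drawn independently for each library without pairing or a split among the controls. Such counts cannot show how the fits behave where libraries are paired or controls split.

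The members and lists were chosen with earlier results of these data known. All 45 members are accounted for, and full values are given for those called in KO_RES or KO against control or in KO_RES against KO and for the 2 or 3 most abundant per role; other lists are named by up to 3 called genes with the smallest adjusted p. Same-numbered KO_RES and KO libraries of a line deviated together from their group means, with correlations of 0.69 to 0.75 over 4 pairs. Each mean was taken over both lines, so these correlations hold the difference between the lines as well. They cannot separate a shared number from a shared line. The block of line and number follows the titles. Total counts limit precision most for low members such as DERL3. No 2 libraries had identical counts.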

Additional observations from a re-analysis of the deposited data

Results flagged for a closer look

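In 2 of 135 groups of 4 libraries, 1 library stood far from the others by its gap over the group's range, where chance gives about 5%. HSPA5 was at 479.6 CPM in control 3, below the other controls at 672, 643 and 651 CPM (gap over range 0.849). DERL2 was at 58.4 CPM in control 4, where controls 1, 2 and 3 had 71.4, 70.4 and 71.3 CPM (gap over range 0.930).

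The lines differed by edgeR's quasi-likelihood test in 6 members, each lower in KO2 than in KO1. The log2 differences were -1.54 (adjusted p = 0.0292) for CRELD1, -1.08 (adjusted p = 0.00575) for EDEM1, -0.83 (adjusted p = 0.00102) for MOGS, -0.73 (adjusted p = 0.0307) for PDIA4, -0.55 (adjusted p = 0.0155) for SEC62 and -0.51 (adjusted p = 0.0262) for DNAJC3. HKDC1 itself was lower in KO2, with a log2 difference of -1.09 (adjusted p = 0.0269); its part in these differences was not tested.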

How the results depend on the processing

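Of 8415 member values under the alternatives, 7502 kept their direction and side of the threshold, 411 were called in neither setting and changed sign, 358 lost a call and 144 gained one; none called in either setting changed sign. Calls over all genes tested follow each member count in brackets. In KO_RES against control 11 members were called (1050 of 19200 genes), against 7 without a filter on low counts (808 of 38800) and 4 with only the groups compared (533 of 18283). There were 0 without controls 1 and 2 (384 of 20120) and 18 with groups by the genotype field (1874 of 19200). The 8 libraries on which title and genotype field agree gave 0 (64 of 19980), and averaging the lines of the 5-group fit gave 18 (3171 of 20559). In KO against control 11 were called (1206 of 19200), against 18 by DESeq2 (2346 of 19195) and 0 without controls 1 and 2 (337 of 20120). The 8 agreeing libraries gave 0 (72 of 19980), and averaging the lines gave 21 (3312 of 20559). In KO2 17 were called (2062 of 20559), against 10 with only the groups compared (1419 of 19514) and 11 without controls 1 and 2 (2136 of 20120). In KO1 15 were called (3721 of 20559), against 7 without controls 1 and 2 (3535 of 20120). Between the lines 6 were called (2463 of 20559), against 10 with only the groups compared (3858 of 18905). The causes were not tested, other than that fewer libraries entered some fits. HKDC1 levels followed the titles and not the genotype field. With single libraries left out, the counts ran from 4 to 11 in KO_RES, 5 to 16 in KO, 3 to 18 in KO2, 3 to 19 in KO1, 1 to 8 between the lines and 5 to 14 between the numbers; where a line kept 1 library, it was assumed to vary like the other groups. With line and number as a replicate block, KO_RES against KO gave 0 members in edgeR, as did every other alternative but DESeq2 with the block, chosen after seeing the data, which gave 1 (GANAB); the block changed no other call.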
